A study of Drosophila melanogaster with 2 samples.

Results

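The genes described here are the 53 protein-coding genes of Drosophila melanogaster that encode the vacuolar H+-ATPase (V-ATPase) or carry an Atg (autophagy-related) symbol, of 13981 protein-coding genes on the main chromosome arms. They were taken by symbol from the Ensembl annotation (release 115, build BDGP6.54), as every symbol that starts with Vha and every symbol that starts with Atg and a number. There were 33 Vha genes and 20 Atg genes. Of the Vha genes, 13 encode V1 subunits, 18 encode V0 subunits and 2 encode accessory subunits.

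Binding was measured by chromatin immunoprecipitation and sequencing (ChIP-seq) with an anti-GFP antibody. The chromatin was sheared by sonication and came from whole larvae at the wandering stage of the third instar, males and females pooled, of a transgenic line that carries Mio with GFP fused at its C-terminus; the age of the larvae is given as unknown. The labels tie the line's name Mio to the gene Mondo, which encodes the fly's glucose-responsive basic helix-loop-helix leucine-zipper factor. The GATOR2 gene with the symbol mio is a different gene. The single group held 2 biological replicates of the same line, which the authors numbered 5 and 1, and the data hold no other genotype, treatment or stage. Peaks were called against 1 control alignment shared by both replicates. Because whole animals were used, strong binding in few cells and weak binding in many cells cannot be told apart, and Mio-GFP was not compared here with untagged Mondo.

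The V-ATPase is a rotary proton pump of lysosomes, endosomes and some plasma membranes. Its cytosolic V1 part hydrolyses ATP and its membrane-embedded V0 part carries protons across the membrane. Autophagy encloses cytoplasm in a double membrane that fuses with the lysosome, where acid-dependent enzymes degrade the content, and in the larval fat body it is induced by starvation and, at the wandering stage, by ecdysone. In mammals many V-ATPase and autophagy genes are targets of TFEB, a relative of fly Mitf that, like Mondo with its partner bigmax, binds E-boxes such as CACGTG.

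Each peak has a summit, the base with the highest signal, and a signal value assigned by the authors' peak caller on a scale that the labels do not state. Rank 1 is the peak with the highest signal in its list. The optimal list holds 1146 peaks that the authors kept by irreproducible discovery rate, a criterion on how well peak ranks repeat between replicates. The 3 relaxed lists, of 29999 peaks for replicate 5, 30000 for replicate 1 and 28423 for both replicates pooled, include background by design, so a peak far down them need not mark binding. Signal ran between 73.6 and 3399 in the optimal list, with a median of 98.2, and between 14.1 and 3399 in the pooled list, with a median of 21.0. A gene was said to have a promoter summit where a summit lay within 500 bp of one of its annotated transcription start sites (TSSs), and the summit with the highest signal was taken. The lists give no read counts, so the depth behind each value is unknown, and signals were not compared between replicates, only ranks.

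The chromosomal DNA under 6 of the strongest member summits is shown here because it is what the ranks below refer to. The sequences are from the Release 6 (dm6) reference genome of RefSeq, 5′ to 3′ on the gene's strand, and capitals mark any match to the E-box pattern CANNTG. Windows are 101 bases centred on the pooled summit, or 30 bases where the longer window would run into a UTR or a coding exon.
Vha100-2 (chr3R:18397233-18397262, minus strand): gataaaagctgaagattattattgctctca
Atg18a (chr3L:8186899-8186928, plus strand): caatatgtatgcagctCAGGTGcagacgca
Atg2 (chr3L:2774018-2774047, plus strand): ttgttgcagggtagcaacaggttgtttgga
Atg17 (chr3R:5669522-5669622, plus strand): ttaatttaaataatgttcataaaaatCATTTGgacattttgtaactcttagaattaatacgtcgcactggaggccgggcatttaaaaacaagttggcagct
Vha55 (chr3R:12627845-12627874, minus strand): cctgctgcggtgtggaactccactaaatgg
Vha68-1 (chr2L:13004195-13004295, minus strand): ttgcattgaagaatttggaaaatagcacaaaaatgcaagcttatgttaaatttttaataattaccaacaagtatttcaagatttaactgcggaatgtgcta
The first 3 of these genes were in the optimal list and the other 3 were not. No CACGTG lies in these 6 windows. Vha44 and Vha36-1, with pooled ranks of 339 and 684, are not among the genes shown, and Vha44 has CACGTG at its summit.

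Of the 53 members, 5 had a summit of the optimal list at their promoter, a share of 9.43%, against 863 of 13981 protein-coding genes, 6.17%. They were Vha100-2, Vha44 and Vha36-1 of the V-ATPase and Atg18a and Atg2 of autophagy. With 5 genes called, the difference between these shares was not tested. Their optimal signals ran between 80.0 and 184 and their median rank was 685, against a median rank of 559 over the 863 genes. When the same number of strongest peaks, 1146, was taken from each replicate alone, replicate 5 held 4 members (7.55%), against 6.25% of all protein-coding genes. Replicate 1 held 7 members (13.2%), against 5.64% of all protein-coding genes. The member count thus depended on the replicate, with 4 in replicate 5 and 7 in replicate 1. The share of members lay nearer to that of all genes in replicate 5 than in replicate 1. Only Vha100-2, Vha44 and Atg17 were in both of these sets, and Atg17 was not in the optimal list. With mitochondrial peaks left out of both replicates, Vha55 was in both sets too. The share of all protein-coding genes in both sets was not computed, so this overlap has no comparison. The 1146 strongest pooled peaks held the same 5 members as the optimal list, and also 863 genes in all. A place in the optimal list thus does not mean a rank within 1146 in each replicate.

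At the looser level of any promoter summit in a relaxed list, 34 of 53 members (64.2%) had one in the pooled list, against 47.5% of all protein-coding genes. In replicate 5 alone 34 members (64.2%) had one, against 49.8%, and in replicate 1 alone 30 members (56.6%), against 42.1%. A summit in all 3 relaxed lists was present at 22 members, against 3996 of the 13981 genes. The summits that members had were of ordinary strength. Their median pooled rank was 5761.5 over 34 members, against 6190 over 6646 protein-coding genes with a pooled promoter summit, and their median pooled signal was 33.6, against 32.4.

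**Figure D1:**
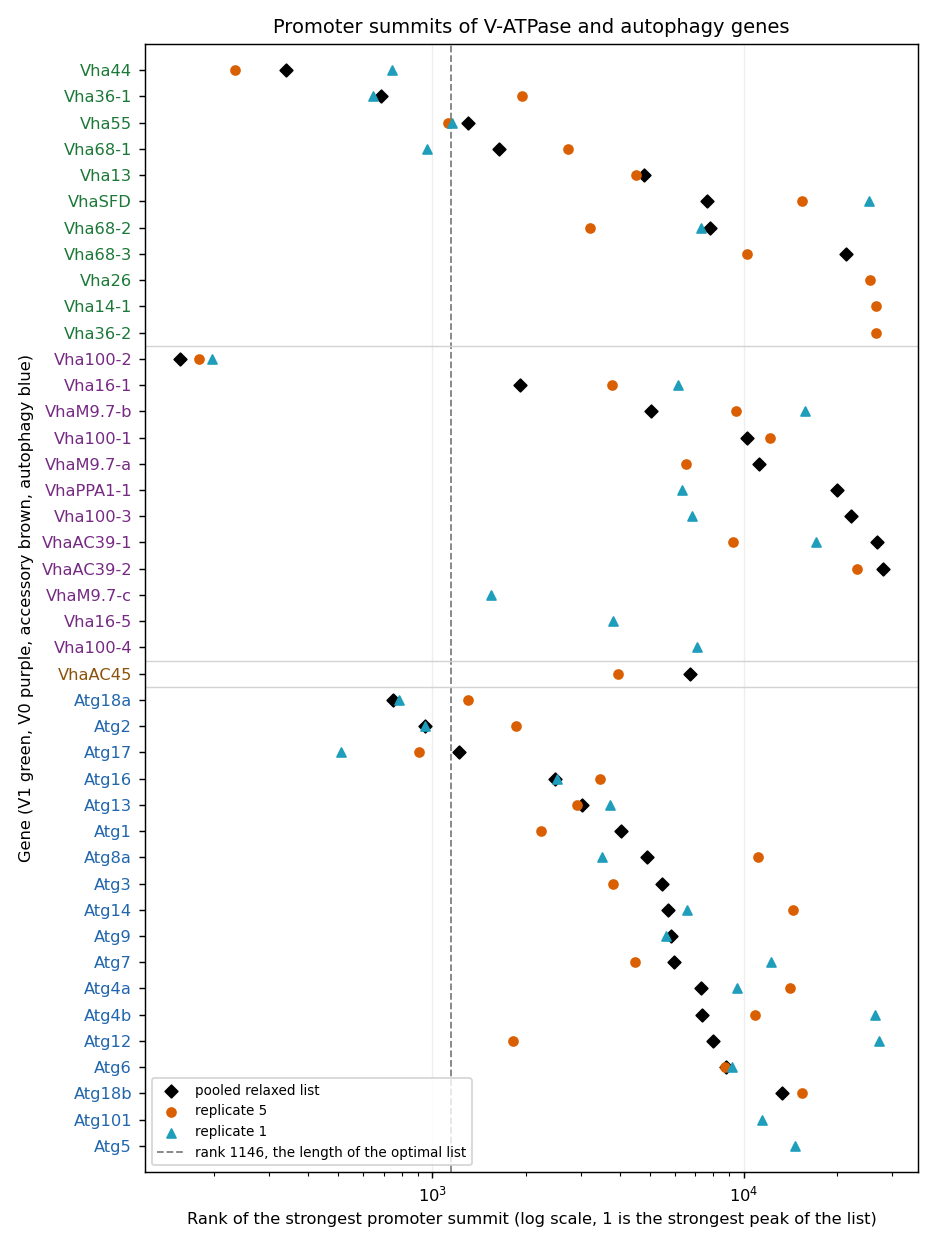
Rank of the strongest promoter summit of each member that had one, in the pooled relaxed list (black diamonds), replicate 5 (orange circles) and replicate 1 (blue triangles); the horizontal axis is logarithmic, a missing symbol means no summit within 500 bp in that list, and the dashed line is rank 1146. Vha100-2 lies farthest to the left in every list, at 155, 179 and 196, and most members lie to the right of the line.

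**Figure D2:**
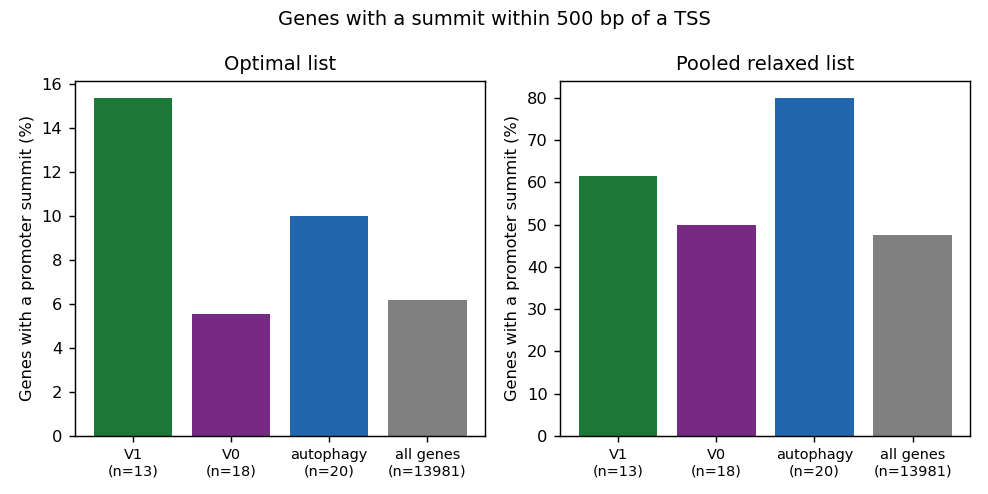
Share of V1, V0, autophagy and all protein-coding genes with a promoter summit in the optimal list (left) and the pooled relaxed list (right), in percent of the genes in each group; bars are complete counts over fixed gene sets and carry no error. The autophagy bar of the pooled list is the tallest, at 80.0%, against 47.5% for all protein-coding genes.

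Among the V1 subunits, 2 of 13 genes had an optimal promoter summit, against 6.17% of all protein-coding genes, and both had a summit in every list. Vha44 (FBgn0287825), the C subunit that joins the peripheral stalks of V1 to the membrane part, had its peak at chr2R:16336503-16336862. The summit lay outside the gene, 46 bp upstream of the nearer of its 2 annotated TSSs, in a 5′ UTR annotated to another gene. The rank of Vha44 was 232 in replicate 5 (signal 92.3) and 745 in replicate 1 (signal 38.5), and its optimal rank was 340 (signal 127). The 2 replicate summits were 11 bp apart. Its canonical TSS is the other one, so the gene drops out where only canonical TSSs are used. Vha36-1 (FBgn0022097), the D subunit of the central rotor shaft, had its peak at chr2R:15541209-15541568, with an intergenic summit 46 bp upstream of the TSS. Its rank was 1944 in replicate 5 (signal 39.2) and 646 in replicate 1 (signal 41.4), and its optimal rank was 685 (signal 91.7). The replicates placed Vha36-1 on different sides of rank 1146, although their summits were 15 bp apart.

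Of the 4 genes for the nucleotide-binding A and B subunits, none was in the optimal list. Vha55, the B subunit and the only gene for it, ranked 1128 in replicate 5 and 1156 in replicate 1, with signals of 48.7 and 30.7. These ranks lie on either side of rank 1146, but with mitochondrial peaks left out Vha55 was among the 1146 strongest peaks of both replicates. Its pooled rank was 1301 (signal 69.0), with the peak at chr3R:12627680-12628039 and the replicate summits 193 bp apart. Vha68-1, one of 3 genes for the catalytic A subunit, ranked 2729 in replicate 5 and 962 in replicate 1, with a pooled rank of 1636 (signal 62.3) and replicate summits 13 bp apart. The peak at chr2L:13004065-13004424 is intergenic and its summit lies 138 bp upstream of the gene. The 2 other A-subunit genes were weaker, with pooled ranks of 7826 for Vha68-2 and 21251 for Vha68-3. The summit given to Vha68-3 lay 347 bp upstream of its TSS in an annotated 3′ UTR.

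The remaining V1 subunits had weaker summits or no pooled summit. Vha13, the G subunit of the peripheral stalks, had a pooled rank of 4775 (signal 36.9) and a replicate 5 rank of 4499, and no promoter summit in replicate 1. VhaSFD, the regulatory H subunit, had a pooled rank of 7632 and ranks of 15385 in replicate 5 and 25283 in replicate 1. Vha26 (subunit E), Vha14-1 (subunit F) and Vha36-2 (a second gene for subunit D) had summits in replicate 5 only, at ranks between 25374 and 26656, where the list ends at 29999. Vha14-2 and Vha36-3 had none in any list. In all, 11 of 13 V1 genes had a promoter summit in replicate 5 and 6 in replicate 1, against 49.8% and 42.1% of all protein-coding genes.

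Among the V0 subunits, 1 of 18 genes had an optimal promoter summit, against 6.17% of all protein-coding genes. Vha100-2 (FBgn0028670), one of 5 genes for the a subunit that forms the proton path beside the rotating ring, had the strongest summit of all 53 members. It ranked 179 in replicate 5 (signal 103), 196 in replicate 1 (signal 73.6) and 156 in the optimal list (signal 184). The peak spans chr3R:18397121-18397311. The replicate summits were 27 bp apart. The pooled summit lay 320 bp upstream of the gene's own nearest TSS, inside the gene span and in an annotated 5′ UTR. The other genes for subunit a lay far below it. Vha100-1 had a pooled rank of 10233 and Vha100-3 of 22076, Vha100-4 had a summit in replicate 1 only (rank 7084), and Vha100-5 had none.

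No subunit had more than 1 gene in the optimal list. Of the 13 V0 and V1 subunits, 8 have several genes. Of these 8, 2 had 1 gene there and 6 had none. By gene this was 2 of 26 (7.69%), against 6.17% of all protein-coding genes. With so few genes called, the counts cannot show whether binding is limited to 1 gene per subunit. For the proteolipid ring of V0, Vha16-1 had a pooled rank of 1915 (signal 57.8), 278 bp downstream of a TSS in a coding exon, with ranks of 3781 in replicate 5 and 6170 in replicate 1. Of the 4 other c-subunit genes, Vha16-2, Vha16-3 and Vha16-4 had no promoter summit in any list, and Vha16-5 had one in replicate 1 only (rank 3801). VhaM9.7-b, a gene for the small e subunit, had a pooled rank of 5047 (signal 35.9) and VhaM9.7-a of 11218. VhaM9.7-c had no pooled summit but ranked 1546 in replicate 1 (signal 26.8), and VhaM9.7-d had none. VhaPPA1-1, for the c″ member of the ring, had a pooled rank of 19987, and VhaPPA1-2 had none. The d-subunit genes VhaAC39-1 and VhaAC39-2 had pooled ranks of 26723 and 28074, near the end of a list of 28423. Over all V0 genes, 7 of 18 had a promoter summit in replicate 5 and 9 in replicate 1, against 49.8% and 42.1% of all protein-coding genes.

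Read by subunit, 11 of the 13 V0 and V1 subunits had at least 1 gene with a pooled promoter summit, and subunits E and F had none. A subunit with several genes has more chances to hold one, and no such share was computed for other gene families. By gene, 8 of 13 V1 genes and 9 of 18 V0 genes had one, against 47.5% of all protein-coding genes. The median pooled rank of genes with a summit was 3205.5 over 8 V1 genes and 11218 over 9 V0 genes, against 6190 over all protein-coding genes with a summit. Genes without a summit are not in these medians. The 5 subunits with a single gene all had a summit in replicate 5 and 4 had one in the pooled list. For genes of multi-gene subunits it was 13 of 26 in each of these lists. The shares over all protein-coding genes were 49.8% and 47.5%. In replicate 1 it was 3 of the 5 and 12 of the 26, against 42.1% of all protein-coding genes. With 5 genes the contrast was not tested. Of the accessory subunits, VhaAC45 had a pooled rank of 6704 and a replicate 5 rank of 3939, and VhaAC45RP had no summit in any list.

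In the pooled list 16 of 20 autophagy genes (80.0%) had a promoter summit, against 47.5% of all protein-coding genes, and 15 of 20 had one in each replicate. In the optimal list 2 of 20 (10%) had one, against 6.17%. Their median pooled rank was 5581 over 16 genes, against 6190 over all protein-coding genes with a summit.

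The initiation complex receives the starvation signal. Atg17, its scaffold protein, ranked 904 in replicate 5 (signal 52.6) and 509 in replicate 1 (signal 45.9), the best replicate 1 rank of any autophagy gene. In the pooled list it ranked 1216 (signal 71.4), below the 73.6 at which the optimal list ends, and its 2 replicate summits lay 228 bp apart. Atg13, a regulatory partner of the Atg1 kinase, had a pooled rank of 3028 (signal 46.3), with 2921 in replicate 5 and 3730 in replicate 1. Atg1, the kinase itself, had a pooled rank of 4037 (signal 40.4) and 2241 in replicate 5, and no promoter summit in replicate 1. Atg101 had a summit in replicate 1 only, at rank 11458.

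Both autophagy genes of the optimal list act in the supply of membrane to the growing autophagosome. Atg18a (FBgn0035850), which binds the lipid PI3P, had its peak at chr3L:8186734-8187093, with the summit 57 bp downstream of a TSS in the 5′ UTR. It ranked 1300 in replicate 5 (signal 45.8), 780 in replicate 1 (signal 37.4) and 752 in the optimal list (signal 88.1). Atg2 (FBgn0044452), a lipid-transfer protein that works with Atg18, had its peak at chr3L:2773853-2774212, intergenic and 305 bp upstream of the TSS. It ranked 1860 in replicate 5 (signal 39.8), 947 in replicate 1 (signal 34.1) and 948 in the optimal list (signal 80.0). Both genes ranked better in replicate 1, and neither was among the 1146 strongest peaks of replicate 5. Atg9, a transmembrane lipid scramblase, had a pooled rank of 5827 and no summit in replicate 5, and Atg18b had a pooled rank of 13282.

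The kinase complex that makes PI3P had summits in all 3 relaxed lists at its 2 Atg-named genes, with pooled ranks of 5696 for Atg14 and 8768 for Atg6, the fly Beclin. Of the 10 genes of the conjugation systems that attach Atg8 to lipid, none was in the optimal list, against 6.17% of all protein-coding genes, and 7 had a pooled summit, against 47.5%. Atg16, which directs the conjugation to the membrane, was the strongest, with a pooled rank of 2480 (signal 51.2), 3469 in replicate 5 and 2514 in replicate 1. Atg8a, the ubiquitin-like protein that is conjugated, had a pooled rank of 4898. The enzymes Atg3, Atg7, Atg4a and Atg4b had pooled ranks between 5466 and 7347. Of the members with a summit in both replicates, Atg12 had the largest ratio between its ranks, with a rank of 1819 in replicate 5 and 27172 in replicate 1. Its 2 replicate summits lay 258 bp apart, so these ranks are not of the same position. Atg5 had a summit in replicate 1 only, at rank 14654, and Atg10 and Atg8b had none in any list.

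The optimal summits at member promoters all lay within 500 bp of a TSS of another protein-coding gene too. This was so for 5 of 5 members, against 487 of the 863 genes (56.4%), and for 19 of 34 members (55.9%) in the pooled list, against 40.6% of 6646 genes. The neighbours were Vti1b at Vha100-2, Hmgs (HMG-CoA synthase) at Vha44, CG8187 at Vha36-1, ERR (a nuclear receptor) at Atg18a and CG12093 at Atg2. At Atg2 and Vha36-1 the summit was 26 bp from the neighbour's TSS, nearer than to the member's own at 305 bp and 46 bp, and at Vha100-2 it was 253 bp from that of Vti1b and 320 bp from its own. Just below the optimal list, Vha55 shared its summit with Snx3, Vha68-1 with mTor, the kinase that inhibits autophagy, and Atg17 with Xe7. A summit between 2 TSSs cannot be assigned to 1 of the genes from these data.

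**Figure D3:**
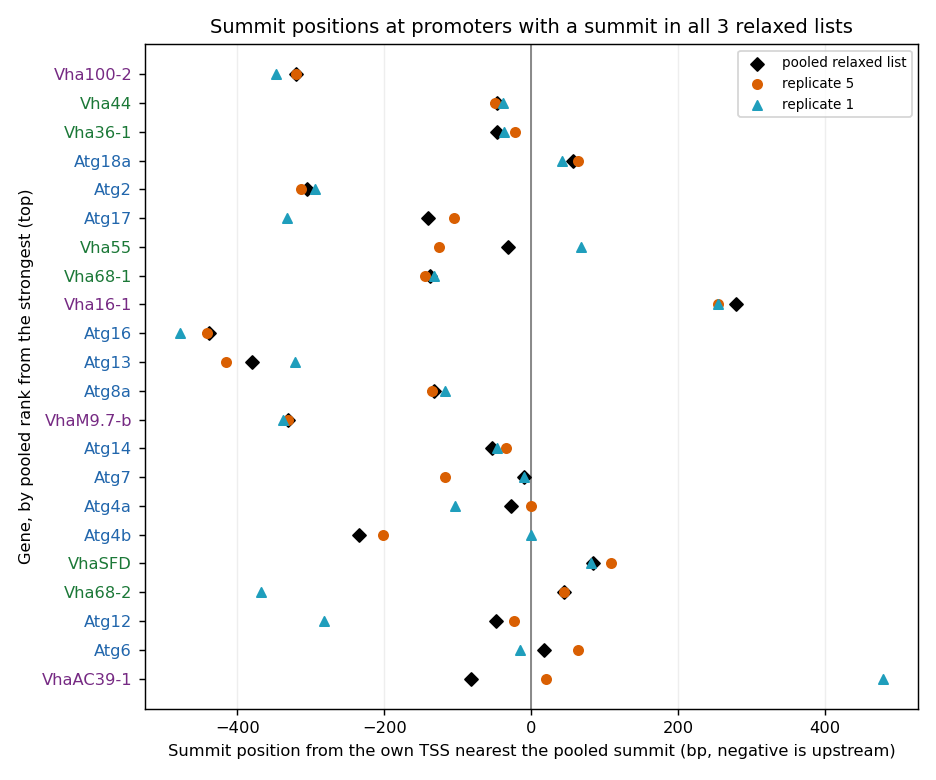
Position of the strongest promoter summit, in bp from the member's TSS nearest the pooled summit (negative is upstream), for the 22 members with a summit in all 3 relaxed lists, ordered by pooled rank; black diamonds are the pooled list, orange circles replicate 5 and blue triangles replicate 1. The 5 members of the optimal list, in the top rows, have replicate summits 11 to 27 bp apart, and summits farther apart occur in the rows below.

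Summits of members lay close to their TSSs. The median distance was 81.5 bp over 34 pooled summits, against 132 bp over all protein-coding genes with one, and 20 of 34 (58.8%) lay within 100 bp, against 40.6%. Upstream of the TSS lay 24 of 34 (70.6%), against 72.4%. By annotation 19 summits (55.9%) were intergenic and 10 (29.4%) in a 5′ UTR, against 48.6% and 26.7%. Introns held 2 (5.88%), against 17.4%. Coding exons held 2 and a 3′ UTR held 1. The members just inside the 500 bp limit were Atg3 at 494 bp (pooled rank 5466), Atg18b at 473 bp and Atg16 at 438 bp. Those just outside it were Atg5, with its nearest pooled summit at 558 bp, Vha26 at 736 bp and Vha16-2 at 766 bp. Farther out, Vha14-1 had its nearest optimal summit at 838 bp.

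A promoter summit in both replicates was present at 22 of 53 members, in replicate 5 only at 12, in replicate 1 only at 8 and in neither at 11. Across the 22 members the replicate ranks had a Spearman rho of 0.71, against 0.58 across 4197 protein-coding genes with both. Ranks were paired by gene, so the 2 summits of a pair can differ in position. With replicate summits within 100 bp of the pooled summit, rho was 0.68 across 17 members, of which 8 ranked better in replicate 1. No such rho was computed over all genes. Within the members rho was 0.92 across 10 V-ATPase genes and 0.46 across 12 autophagy genes. These are descriptions across promoters of the same 2 libraries, which share 1 control alignment, and promoters are not independent replicates. Replicate 1 gave the better rank at 9 of 22 members (40.9%), against 42.7% of genes. That split was 2 of 10 for V-ATPase genes and 7 of 12 for autophagy genes, and this difference was not tested. The replicate summits lay within 100 bp of each other at 14 of 22 members (63.6%), with a median gap of 32.5 bp, against 49.6% and 102 bp over all genes.

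**Figure D4:**
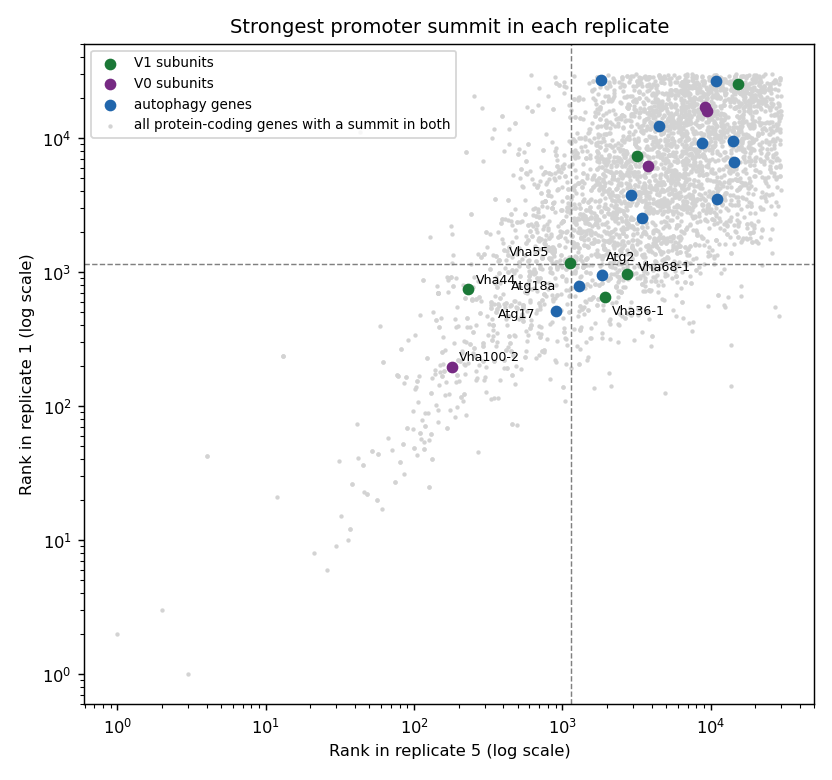
Rank of the strongest promoter summit in replicate 5 (horizontal, log scale) and replicate 1 (vertical, log scale) for V1 (green), V0 (purple) and autophagy genes (blue) with a summit in both, over all protein-coding genes with both (grey); dashed lines mark rank 1146. Vha100-2, Vha44 and Atg17 lie inside both lines, Atg18a, Atg2, Vha36-1 and Vha68-1 inside that of replicate 1 only, and Vha55 inside that of replicate 5 only. Mitochondrial peaks are counted in these ranks.

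The E-box CACGTG, the word bound by many basic helix-loop-helix leucine-zipper dimers, was searched within 50 bp of each pooled summit. It was found at 1 of 34 members (2.94%), against 91 of 6646 protein-coding genes (1.37%). That member was Vha44, with the E-box 1 bp from the pooled summit, 4 bp from the summit of replicate 5 and 7 bp from that of replicate 1. Longer forms were absent at members. CACGTG flanked by GT on its 5′ side and AC on its 3′ side was found at 0 of 34 members and 0 of 6646 genes. The paired form, 2 copies of CACGTG with 5 bp between and at most 2 mismatches in 12 bases, was found at 0 members and 8 genes (0.12%).

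In the window between 250 bp before and 50 bp after the canonical TSS, CACGTG occurred at 3 of 53 members (5.66%), against 594 of 13981 promoters (4.25%). These were Atg4a, VhaAC45RP and VhaM9.7-d. The last 2 had no summit in any list, and the E-box of Atg4a lay 153 bp upstream of its pooled summit. Away from the pooled summits, CACGTG also lay 10 bp from the replicate 1 summit of Vha55, 89 bp downstream of its pooled summit, and 9 bp from the replicate 1 summit of Atg12. The 30 bases around the word are shown for these genes because the surrounding letters differ; CACGTG is in capitals, as is any other CANNTG.
Vha55 (chr3R:12627756-12627785, minus strand): gtCATGTGacggCACGTGacgtcacagcag
Atg12 (chr3L:12136661-12136690, plus strand): ttataaactccaCACGTGttacaataacag
Atg4a (chr2L:1080715-1080744, plus strand): tttgaagtcccgCACGTGcaattttgaagt
VhaAC45RP (chr3R:30166575-30166604, minus strand): ccgttacagaaaCACGTGgcactcgaattg
VhaM9.7-d (chr3R:16975215-16975244, plus strand): gaaatggataagCACGTGgcattcatggtc
The word is thus present at member promoters with and without a summit near it.

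Other words of the form CANNTG were more common at member summits. At least 1 lay within 50 bp of the pooled summit at 20 of 34 members (58.8%), against 2353 of 6646 genes (35.4%). The share was 12 of 18 for V-ATPase genes and 8 of 16 for autophagy genes. Within 25 bp it was 9 of 34 (26.5%), against 19.2%, and within 100 bp 28 of 34 (82.4%), against 59.8%. In whole pooled peaks the shares lay closer together, at 29 of 34 (85.3%) and 79.8%. In the promoter window of all genes, bound or not, the shares lay close together, at 42 of 53 members (79.2%) and 76.4% of 13981 promoters. Among the member summits the words were mixed. CAAATG or its reverse complement occurred 5 times, CAGCTG 5 times and CACCTG or its reverse complement 4 times, and each other word at most 3 times. The GC content within 50 bp of the summit had a median of 41.6% over members and 38.6% over all genes with a summit, and its part in these shares was not tested.

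TATCGATA, the DNA replication-related element bound by DREF in many housekeeping promoters, lay within 50 bp of the pooled summit at 2 of 34 members (5.88%), Atg12 and Atg7, against 4.39% of 6646 genes. Around the summits of replicate 5 alone there were also 2, Atg12 and Atg14, and around those of replicate 1 alone there was 1, Atg7. Within 100 bp of the pooled summit there were 4 members (11.8%), against 7.78%, and in whole pooled peaks 6 of 34 members, against 734 of 6646 genes. In the promoter window it was found at 8 of 53 members (15.1%), against 1249 of 13981 promoters (8.93%). Of the 8, 6 were autophagy genes (30% of 20), namely Atg3, Atg7, Atg12, Atg13, Atg14 and Atg17, and 2 were V1 genes, Vha55 and VhaSFD. The sequences around 7 of them are shown with the element in capitals, because its place relative to the TSS differs between genes.
Atg12 (chr3L:12136891-12136920, plus strand): ctcgtgacaccTATCGATAatttcttcaga
Atg3 (chr3L:18748628-18748657, plus strand): ctgcaacaactTATCGATAgtcccacccac
Atg17 (chr3R:5669641-5669670, plus strand): accagctctgtTATCGATAtcaacttgaaa
Atg13 (chr3R:8349802-8349831, plus strand): cattatcggacTATCGATActatcgcgagt
Atg14 (chr3R:29116381-29116410, plus strand): aggtgtcctcaTATCGATAgcgataatagc
Vha55 (chr3R:12628000-12628029, minus strand): gcttccaaattTATCGATAacatacggcga
VhaSFD (chr2L:16727831-16727860, minus strand): tctgctcgtcaTATCGATAttcttatatat
The element was centred 61 bp upstream of the TSS at Atg12, 44 bp at Atg3, 57 bp at Atg17, 185 bp at Vha55 and 19 bp at VhaSFD, and 2 and 5 bp downstream at Atg13 and Atg14. GAGAG, read on both strands as a word bound by GAGA factor, lay within 50 bp of the pooled summit at 6 of 34 members (17.6%), against 13.1% of genes, at 1 member (2.94%) within 25 bp, against 6.64%, and at 10 (29.4%) within 100 bp, against 23.8%. It was found in 13 of 53 promoter windows (24.5%), against 30.1%. A match is a word in the reference genome and does not show that a factor binds it. CACGTG and TATCGATA read the same on both strands and were counted once.

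**Figure D5:**
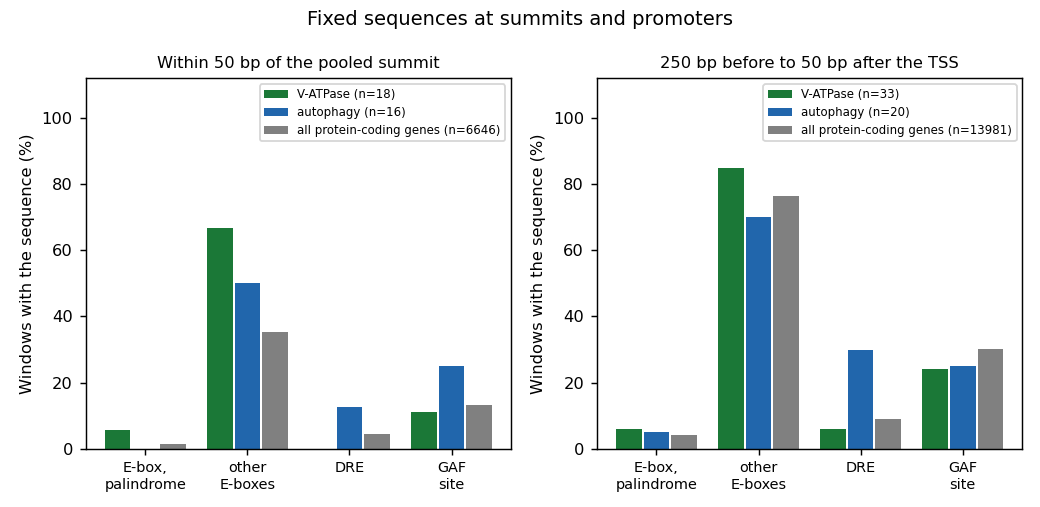
Share of V-ATPase genes (green), autophagy genes (blue) and all protein-coding genes (grey) whose window holds the CACGTG E-box, another E-box, the DNA replication-related element (DRE) or a GAGA factor (GAF) site, in percent of windows; windows are 50 bp either side of the pooled summit (left) or 250 bp before to 50 bp after the canonical TSS (right), and bars are complete counts without error. Other E-boxes stand at 66.7% and 50% at the summits of V-ATPase and autophagy genes, against 35.4% for all genes.

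Other genes of the lysosome were set beside the members, from lists of 60 genes without a Vha or Atg symbol. An optimal promoter summit was present at 4 of 60 (6.67%), against 6.17% of all protein-coding genes, and a pooled one at 49 of 60 (81.7%), against 47.5%. Lamtor3, of the Ragulator complex that anchors TOR complex 1 to lysosomes, ranked 147 in replicate 5, 386 in replicate 1 and 185 in the optimal list. Hexo2, a hexosaminidase, ranked 230, 208 and 218 in the same lists. Wdr24, of the GATOR2 complex, ranked 393, 2487 and 631. Ykt6, a SNARE protein, ranked 1477, 1560 and 1118. By list, an optimal summit was present at 2 of 14 nutrient-sensing genes, 1 of 23 lysosomal enzymes and membrane proteins, 1 of 12 autophagy genes without an Atg symbol, 0 of 9 fusion genes and 0 of 2 V-ATPase assembly genes. Mitf itself, the fly relative of TFEB, had no optimal summit. Its strongest promoter summit ranked 3151 in replicate 5, 29809 of 30000 in replicate 1 and 5185 in the pooled list.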

How the data were processed

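The peak lists were made by the authors. Per the labels and the text records deposited with them, the pooled and replicate lists were called on dm6 alignments against 1 control alignment, and the optimal list was derived from them; no source used here names the aligner, the peak caller, their versions or the IDR threshold. From each deposited list the authors' signal, which is never negative, the −log10 q-value and the summit position were read. The −log10 q-value of every optimal peak is 3.41, so peaks were ranked by signal. TSSs came from Ensembl release 115 (BDGP6.54) and bases from the RefSeq Release 6 genome, whose arm lengths hold all peak ends. Mitochondrial peaks (29, 34, 36 and 12 of the optimal, pooled, replicate 5 and replicate 1 lists) kept their ranks. Python 3.11.15, pandas 2.3.3, NumPy 2.4.6 and SciPy 1.17.1 were used; distance and word searches were tested on simulated data. With 1 group no test between groups was made, and shares are counts. Members and lists were chosen with earlier results of these data known. The text names members in the optimal list, among the 1146 strongest peaks of another list, among the 5 best pooled ranks of V0, V1 or autophagy, with CACGTG at the summit, or without any summit, and genes of other lists in the optimal list, with Mitf. Other members were named after their values were seen. The dm3 lists were not used here. The replicates are labelled as separate biological samples, and their lists differ.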

Additional observations from a re-analysis of the deposited data

How the results depend on the processing

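The count of 5 members in the optimal list became 3 with TSSs within 200 bp, 3 with the TSS inside the whole peak, 2 with the strongest 573 peaks, and 9 with a reach of 2000 bp before the gene to its end, a setting chosen after seeing the data that takes in 9.56% of all protein-coding genes. Taking 1 replicate's strongest peaks in place of the optimal list gave 4 to 8 members. These are shares of 7.55% to 15.1%, against 5.63% to 6.34% of all protein-coding genes. For V0 the count of 1 became 0 within 200 bp, against 4.38% of all protein-coding genes, and 0 in the whole peak, against 3.70%. With the long reach it was 2 (11.1%, against 9.56%). For V1 the count of 2 became 1 with canonical TSSs (7.69%, against 5.14%) and 1 with the strongest 573 peaks (7.69%, against 3.15%). Within 1000 bp it was 3 (23.1%, against 7.15%). With 1 replicate it was 2 to 4 (15.4% to 30.8%, against 5.63% to 6.34%). For autophagy the count of 2 became 1 within 200 bp (5%, against 4.38%) and 1 in the whole peak (5%, against 3.70%). With the strongest 573 peaks it was 0, against 3.15%, and with the long reach 5 (25%, against 9.56%). With 1 replicate it was 1 to 3 (5% to 15%, against 5.63% to 6.34%). CACGTG at the summit, at 1 member, was found at 2 in a 100 bp window (5.88%, against 2.62% of genes) and 3 in whole peaks (8.82%, against 4.83%). With 1 replicate it was found at 1 to 3 (2.94% to 10%, against 1.27% to 1.29%). Other CANNTG words, at 20 members (58.8%, against 35.4% of genes), were found at 9 within 25 bp (26.5%, against 19.2%). They were found at 16 of 34 members around replicate 5 summits (47.1%, against 36.5%). Around replicate 1 summits it was 16 of 30 (53.3%, against 37.7%). The cause of these shifts was not tested, beyond the fewer peaks, windows or TSSs that a setting admits. TATCGATA, at 2 members, was found at 4 in a 100 bp window, 6 in whole peaks and 1 to 2 with 1 replicate. GAGAG, at 6 members, was found at 1 within 25 bp (2.94%, against 6.64% of genes) and 10 in a 100 bp window (29.4%, against 23.8%). In whole peaks it was found at 13 (38.2%, against 36.8%), and with 1 replicate at 4 to 5 (13.3% to 14.7%, against 12.7% to 12.9%). Of the settings tried for the counts of bound promoters and of the E-box words, the median rank and the replicate comparison, 52 stayed within 1.5 times or the replicate spread and 21 did not. This tally does not measure stability, because some settings could not change a value. Leaving mitochondrial peaks out of the optimal list cannot move the count of a nuclear gene, and ranks without them keep their order within a list. Atg2 had a pooled rank of 947 by its strongest summit and 7162 by its nearest. No paired analysis was possible because there is 1 group. With 2 replicates and unknown depth, a member without a summit was not detectable in these lists, which is not absence of binding.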

Other observations

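Beyond 500 bp from their own TSSs, 4 member genes held a peak of the optimal list inside the gene body, found with the longer reach that was chosen after seeing the data. That reach takes in 9 of 53 members, against 1336 of 13981 protein-coding genes (9.56%). These 9 include the 5 members with an optimal promoter summit. No share over all genes was computed for peaks inside the gene body beyond 500 bp. The count of 4 thus has no like comparison. In Atg7, the E1-like enzyme of the conjugation systems, the peak ranked 330 (signal 129), 3525 bp from the gene's own TSS in an intron and 22 bp from the TSS of CG5335, so that it lies at the promoter of that gene. In Vha16-1 it ranked 615 (signal 96.2), 4053 bp from the TSS in an intron. In Atg18b it ranked 651 (signal 93.9), 5457 bp from the TSS in an intron. In Atg17 it ranked 1073 (signal 75.5), 1529 bp from the TSS in an intron, while the promoter summit of the same gene was not in the optimal list. None of these 4 peaks has CACGTG within 50 bp of its summit. Long genes offer more sequence to this reach, and no adjustment was made for it.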
